A study of Mus musculus with 4 samples.

Results

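Sites at which RNA reads carried a base other than the reference were examined where they were annotated to simple repeats and low-complexity sequence. A site was taken when the site table placed it in a repeat of the class Simple_repeat or Low_complexity and when at least 1 of 4 libraries had at least 5 reads there, at least 3 of them altered, and a rate of altered reads of 5% to 95%. This gave 642 members, 527 in simple repeats and 115 in low-complexity sequence, of 24200 sites that passed these limits and of 1205261 sites listed in all. The members were chosen on the rates themselves, so their number and their rates in the library that chose them are a description. The table lists A-to-G changes read on the strand of the annotated gene, which is how editing of an adenosine to inosine appears in RNA sequence and also how an inherited A/G difference appears.

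The libraries came from lung endothelial cells (ECs) of 2 male C57/BL6 mice, 2 weeks old and from separate litters, that carry an inducible ADAR1 knockout (i-KO). Each mouse gave an untreated culture (CON) and a culture treated with 4-OH-tamoxifen (TM), which activates Cre recombinase and removes exons 12 to 15 of Adar. The mice are called EC1 and EC2, each with 1 CON and 1 TM library, which makes n = 2 per group, paired by mouse. Where 4 values follow each other, they stand for CON then TM of EC1, followed by CON then TM of EC2. CON cells carry the same floxed alleles and Cre as TM cells, and differ from them also by exposure to the drug. The promoter that drives this Cre is not given in the sources used here.

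In exons 12 to 15 of Adar, the site table listed 5 sites in EC1 CON at a median depth of 145 reads and none in EC1 TM. In EC2, CON had 2 sites there at a median of 167 reads and TM had 3 at a median of 55 reads. Per 100000000 reads the median depth was 116 in EC2 CON and 26.5 in EC2 TM. Counts of reads assigned to all of Adar were instead higher in TM, at 9 in CON and 47 in TM of EC1 and 16 and 71 in EC2. In CON these whole-gene counts lay far below the median depth of single sites in exons 12 to 15 (145 and 167 reads). They therefore miss most reads of the gene and are not taken as its expression. Count tables summed to 131796753 to 207323870 per library, of which 0.823% to 0.858% lay on genes. Summed counts of 5 endothelial markers were 720 to 1368, against 41 to 69 for 3 mesenchymal, 10 to 39 for 2 leukocyte and 0 to 5 for 2 epithelial markers. Marker counts, too, held only a part of the reads. Cdh5 had counts of 442 to 869 and median depths of 5801 to 10323 reads at its listed exonic sites. For the mesenchymal marker Acta2 the counts were 33 to 55 and the median depths, where available, 51 to 279. Vwf, an endothelial marker, had a count of 2 in each CON library and 0 in each TM library, too few to compare.

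ADAR1 converts adenosine to inosine in double-stranded RNA, and reverse transcription reads inosine as guanosine. Inverted copies of SINEs, short interspersed elements that are common in introns and 3′ UTRs, are its best known substrates in mouse cells. Simple repeats are tandem copies of a short unit. They gain and lose units often, differ between individuals, and can be misaligned by a unit or copied with errors during PCR and reverse transcription. In such sequence an altered base can therefore come from editing, from an inherited difference or from an error in copying or alignment.

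The members lay in 447 separate repeats of 355 host genes. A repeat was 20 to 565 bases long with a median of 67 bases, and 338 of the repeats held a single member. By the table's annotation 386 members (60.1%) were intronic and 95 (14.8%) were in 3′ UTRs, while 15 were in other exons and 12 in 5′ UTRs. Units of 4 bases (189 members) and of 2 bases (185 members) were the most common. On the gene strand the leading units were GT with 81 members, AC with 63 and AAAG with 39, followed by the low-complexity type AT_rich with 34. In 126 of the 527 simple repeat members the unit had no A on the gene strand, so that the reference A was not a base of the unit. Some of these As interrupted the repeat. Others lay just outside it, as in Mast4 at position 102734397 beside a repeat annotated from 102734398. Of the members, 42 lay within 500 bases of a passing SINE site on the same gene strand.

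The sequence around a site could be read for 153 members that lie inside a GENCODE vM21 transcript, and the transcript base at the site was A in all 153. The windows below run 5′ to 3′ on the gene strand, are 29 bases long, come from GENCODE vM21 transcripts (GRCm38, the mm10 build) and show the altered A in capitals. The first window is that of the member with the largest CON excess after the members called.
Calcrl, 3′ UTR, chromosome 2, position 84332560, minus strand: gagagagagagagaAagagagagagagag
The next group holds members listed in both libraries of one mouse and in neither of the other, in exons outside UTRs (Arhgap17 and Acin1) and in 3′ UTRs (Phactr2 and Nrp2).
Arhgap17, EC1 only, chromosome 7, position 123286865, minus strand: cagcagcagcaacaAcagcagcaacaaca
Phactr2, EC1 only, chromosome 10, position 13211377, minus strand: gtgtgtgtgtgtgtAtgttgcagttgtaa
Acin1, EC2 only, chromosome 14, position 54642989, minus strand: gagaagcggcgaaaAgaacgagaagaaga
Acin1, EC2 only, chromosome 14, position 54665506, minus strand: gaagaagaagaggaAgaagaagaagatga
Nrp2, EC2 only, chromosome 1, position 62816978, plus strand: acacacacacacacAcacacacacacaca
The last group holds deep members that passed in all 4 libraries.
Setd3, 5′ UTR, chromosome 12, position 108179246, minus strand: cggccgccgccgccAccgccgccgccgcc
Trim8, 3′ UTR, chromosome 19, position 46516348, plus strand: aaaaaaaaaaaaggAgaaaaaaaaaaaag
Ago2, 3′ UTR, chromosome 15, position 73101912, minus strand: ggggacggacggacAgacagacagacaga

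Several of these windows show an A that breaks an otherwise regular run, as in Calcrl and Setd3, while in Phactr2 the A lies at the end of the run. For 113 simple repeat members inside transcripts, the base 1 unit before and 1 unit after the site was read. It was G, the altered base, on both sides for 20 members (17.7%), A on both sides for 51 (45.1%), and A on one side and G on the other for 31 (27.4%). ADAR enzymes are known to disfavour a G just before the edited A and to favour a G just after it. A G preceded 14.4% of the 153 sites and 20.2% of the other As within 50 bases, compared with 7.85% and 26.2% for 2026 SINE sites. A G followed 22.2% of the members and 22% of the other As, against 47% and 35% for SINE sites. For 3159 sites outside repeats, a G preceded 17.7% against 26.5% of other As and followed 32.8% against 30.2%. Sites of one repeat share their sequence, so these shares are descriptive.

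The members passing per library numbered 330 and 265 (CON and TM of EC1) and 253 and 271 (CON and TM of EC2). These were 2.75%, 2.79%, 2.38% and 2.22% of all passing sites of those libraries. Scaled to 100000000 reads the numbers were 248, 201, 176 and 131, lower in TM than in CON in each mouse and lower in both EC2 libraries than in both EC1 libraries. A count under fixed limits need not rise in proportion to reads, and EC2 TM had the most reads (207323870). Its unscaled number was above that of EC2 CON. All passing sites numbered 11979, 9492, 10641 and 12232, so the scaled numbers do not show a fall particular to the members. Most members were shallow, with median depths of 14, 12, 15 and 17 reads, and precision is limited accordingly. At the edge of the limits, 111, 80, 84 and 79 members passed in a library with exactly 3 altered reads, while 232, 206, 158 and 222 listed sites of these repeats fell just outside with 2. A further 243, 209, 152 and 221 sites were left out of a library for a rate above 95%.

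The median rate of altered reads in the library where a member passed was 42.3% (CON) and 44.4% (TM) in EC1, and 40% (CON) and 37.5% (TM) in EC2. Passing SINE sites had medians of 28.1% to 30.8%, and sites outside repeats 47.4% to 50%. The members therefore lay between the other classes in every library. Their rates were spread broadly: rates of 40% to 60% took 20.9% to 23.6% of the members, 19.4% to 21.9% of SINE sites and 32.6% to 35.1% of sites outside repeats. Rates of 80% to 95% took 10.3% to 16.6% of the members, 3.55% to 4.78% of SINE sites and 10.2% to 11.9% of sites outside repeats.

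**Figure D1:**
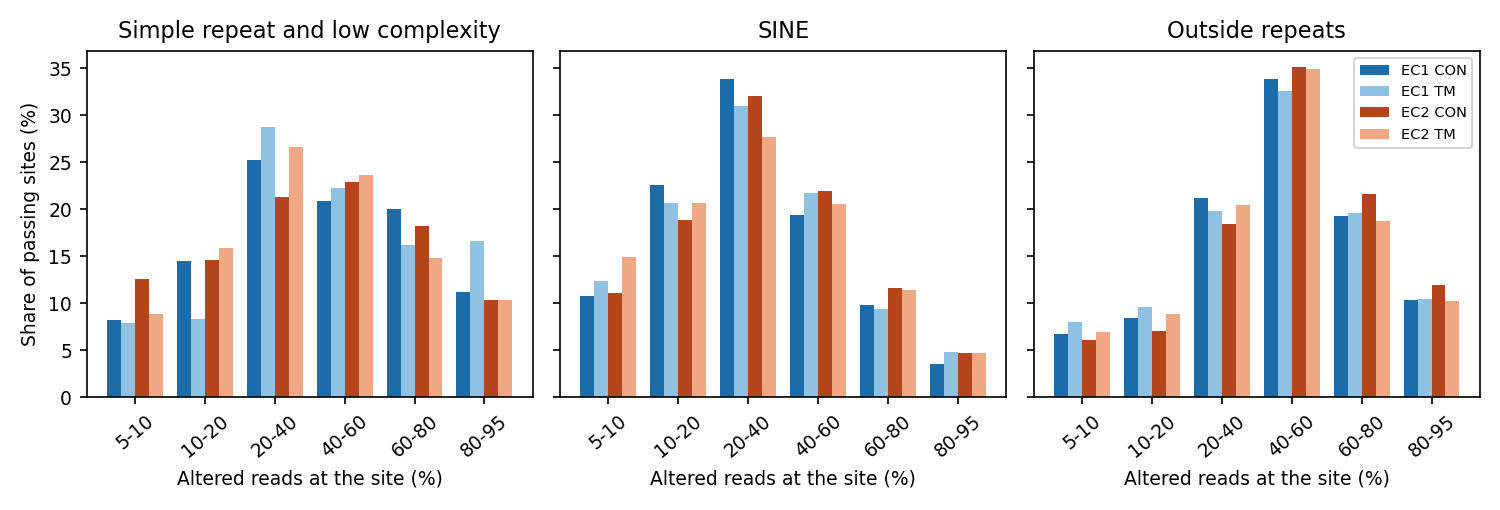
Share of passing sites (%) by the rate of altered reads (%), in bins of unequal width, for the simple repeat and low-complexity members, SINE sites and sites outside repeats. Bars are single libraries. Sites outside repeats peak at 40% to 60% with 32.6% to 35.1% of sites, whereas the members hold 20.9% to 23.6% there and are spread over all bins.

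The first question was whether rates at these sites fell when Adar was deleted. To keep the comparison further from the choice of sites, members that passed in one mouse were read in the other mouse. At least 5 reads in both CON and TM of that mouse were required. A library lists a site only with at least 1 altered read, so members without one in CON or in TM of the mouse read were left out. Together these requirements left 189 of 409 members in EC1 and 198 of 456 in EC2, so the reading is only partly apart from the choice. In EC1, 189 members chosen in EC2 had a mean rate of 38.1% in CON and 37.5% in TM, a difference of 0.586 percentage points, with CON higher at 101 and TM higher at 79. In EC2, 198 members chosen in EC1 had a mean of 36.7% in CON and 35.8% in TM, a difference of 0.853 points, with CON higher at 101 and TM higher at 87. The mean over the mice was 0.720 ± 0.189 points (SD, n = 2 mice). An exact two-sided sign permutation over mice gave p = 0.5, which is the smallest that 2 mice allow. With unlisted sites taken as a rate of 0, the mean difference became -0.313 points, so its direction depends on how unlisted sites are read.

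SINE sites under the same reading were 4.77 points higher in CON in EC1 (28.3% against 23.6%, n = 2786) and 7.56 points higher in EC2 (29.5% against 21.9%, n = 2796). Sites outside repeats differed by 0.307 points in EC1 and 1.33 points in EC2 (n = 4028 and 3904). In both mice the members' difference was below that of SINE sites, and compared with sites outside repeats it was higher in EC1 and lower in EC2. The size depended on the reading. At a depth of at least 10 reads the members differed by 3.27 points in EC1 and 0.348 in EC2 (n = 99 and 101), against 5.65 and 8.19 for SINE sites and 0.489 and 1.36 outside repeats. For summed reads the members' values were 5.12 and -0.849 points, so the mice went opposite ways, against 7.76 and 10.2 for SINE sites and -1.65 and 3.91 outside repeats. With 2 mice the smallest p of any such comparison is 0.5. The SD of the difference over members was 16.6 points in EC1 and 16.2 in EC2, against 15.6 and 16.2 for SINE sites, so single sites moved widely in each class.

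Groups of members by unit did not share a direction. Members with an AC unit differed by -7.96 points, CON minus TM, in EC1 (n = 19, 30.5% against 38.4%) and by 6.35 points in EC2 (n = 18, 43.5% against 37.2%). Members with a GT unit differed by -0.627 points in EC1 and -0.0107 in EC2 (n = 21 and 31). Those with an AT unit were higher in CON in both mice, by 4.82 points (n = 9) and 2.26 points (n = 13). Members near a passing SINE site were 14.1 points higher in CON in EC1, with CON higher at 14 of 16, whereas in EC2 the difference was -3.31 points, with CON higher at 6 of 14. The 42 members of this group include 7 of one Tbc1d24 repeat and 5 of one AT_rich repeat in Med15. Sites of one repeat share reads, and this group was not counted by repeat. The 600 members with no SINE site near differed by -0.659 and 1.17 points.

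The largest mean difference with the same sign in both mice, among unit or low-complexity groups read at 5 or more sites in each mouse, was in AT_rich sequence, a group singled out after its values were seen. Its rates were 37.5% in CON and 25.5% in TM of EC1, with CON higher at 11 of 12 members, and 35.5% and 25.9% in EC2, with CON higher at 6 of 9. The group had 34 members in 23 repeats of 22 genes. Counting each repeat once at members with at least 5 reads in both libraries, CON was higher in 9 of 10 repeats of EC1 (47.2% against 28.5%) and in 7 of 14 of EC2 (37.9% against 34.3%). That reading includes the library that chose a site. Examples named after their values were seen are Ankrd28, a subunit of a protein phosphatase complex, and Tor1aip2, a protein of the nuclear envelope. The Ankrd28 3′ UTR site at position 31701375 of chromosome 14 had 8 of 54 altered reads in CON and 2 of 62 in TM of EC1, and 8 of 73 and 4 of 112 in EC2, with both CON rates above both TM rates. It passed the limits in the CON libraries only, with TM rates of 3.23% and 3.57%. The rule thus chose this site through CON. Tor1aip2 had 28 of 39, 51 of 86, 26 of 51 and 114 of 178, and its groups overlapped.

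**Figure D2:**
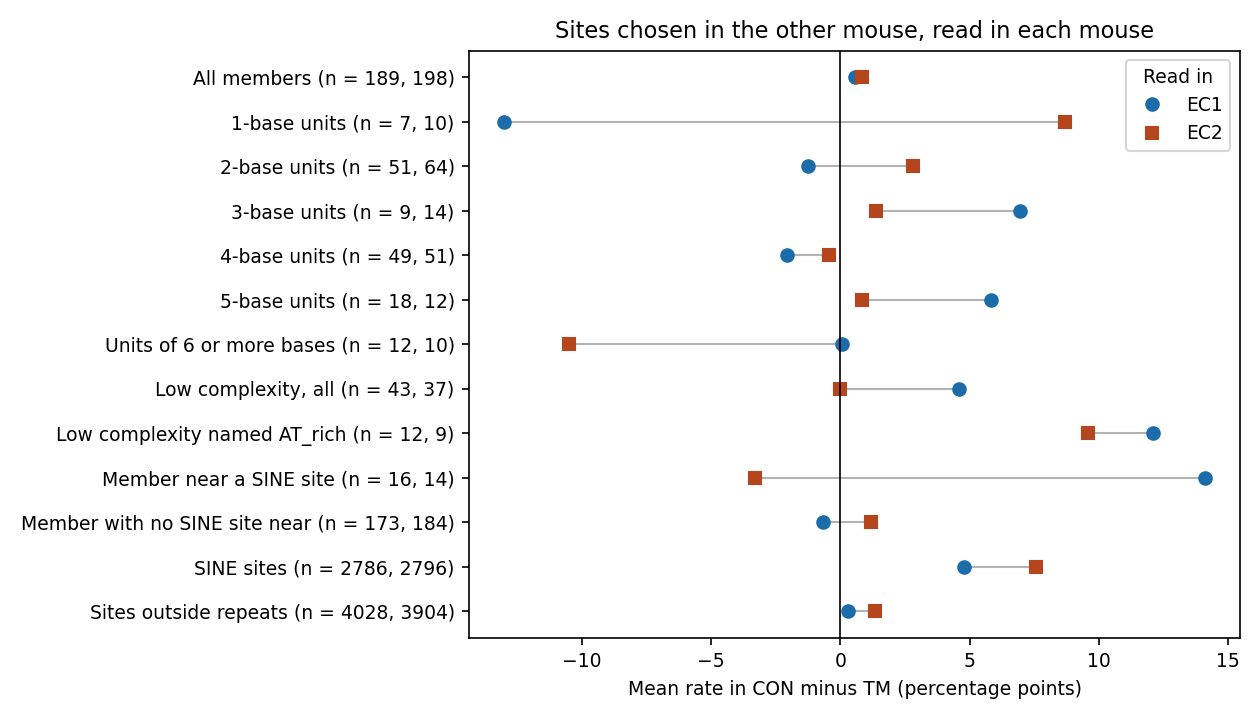
Mean rate in CON minus TM (percentage points) in EC1 (circles) and EC2 (squares), at sites that passed in the other mouse, with the number of sites read in EC1 and EC2 beside each group. All members lie at 0.586 and 0.853 points, near sites outside repeats and below SINE sites (4.77 and 7.56), while AT_rich members lie at 12.1 and 9.57 and members near a SINE site lie on opposite sides of 0.

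Site by site, reads in CON and TM were compared with Fisher's exact test in each mouse and with an exact test stratified by mouse over both, two-sided, with Benjamini-Hochberg adjustment over all listed sites tested. These tests compare libraries rather than conditions. They take only sites listed at 5 or more reads, and so with at least 1 altered read, in each library compared. In EC1, 0 of 288 members tested were called (adjusted p at most 0.05), where 0.141% of 45320 tested sites were. At an unadjusted p under 0.05 there were 4 (background 1.67%), all higher in CON (background 1.28%) and 0 higher in TM (background 0.391%). In EC2, 1 of 286 was called, against a background of 0.347% of 47499 sites. At an unadjusted p under 0.05 there were 8 (background 2.47%), 7 of them higher in CON (background 2.12%) and 1 higher in TM (background 0.354%). Over both mice 2 of 162 members were called, both higher in CON, where 1.42% of 20243 sites were called in that direction and 0.0741% in the other. At an unadjusted p under 0.05, 8 members were higher in CON (background 4.56%) and 1 in TM (background 0.800%). Those backgrounds are over all listed sites, most of which meet no limit. Among sites that passed the limits, as the members had to, the shares were higher: 0.545% in EC1 and 1.36% in EC2 were called, and 3.82% over both mice with CON higher, where the members gave 0, 0.350% and 1.23%. At an unadjusted p under 0.05 with CON higher over both mice, the share was 11.4% of passing sites, 5.73% of sites outside repeats and 4.94% of the members. SINE sites gave 40 of 4070 and 104 of 4083 calls in the single mice and 201 of 2645 over both, of which 200 were higher in CON. Over the same 20243 sites, the test called 0 members without EC2 and 2 without EC1.

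A member called over both mice was in Csnk1a1, which encodes a casein kinase 1 of the Wnt pathway. Its site, at position 61588396 of chromosome 18, lies downstream of the gene in a repeat of the unit TA. It had 14 of 215 altered reads in CON (6.51%) and 8 of 282 in TM (2.84%) of EC1, and 37 of 350 (10.6%) and 33 of 683 (4.83%) in EC2. Both CON rates were higher than both TM rates, and the stratified exact test gave an adjusted p of 0.0107. The site passed the limits in the CON libraries only, since both TM rates were under 5%. It is thus a member through the group where it was higher, so its CON excess and this p are a description. Within single mice the adjusted p of Fisher's exact test was 1 in EC1 and 0.182 in EC2. Per 100000000 reads the altered reads went from 10.5 to 6.07 and from 25.8 to 15.9, and the reference reads from 151 to 208 and from 218 to 314. The site table does not record the strand of a read, so reads from either strand over a site cannot be told apart.

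Beyond these calls, the members with at least 10 reads in all 4 libraries and the largest CON excess in the mouse where it is smaller were in Calcrl, Terf2ip, Map4k4 and Erdr1. Calcrl encodes the receptor for adrenomedullin, a peptide that acts on vessels. Its 3′ UTR site had 7 of 15 altered reads in CON and 1 of 13 in TM of EC1, and 9 of 24 and 3 of 24 in EC2, without overlap of the groups and with an adjusted p of 0.178 in the stratified exact test. Terf2ip, a telomere protein, had 6 of 13, 2 of 14, 9 of 16 and 5 of 15 in an intron. Map4k4, a kinase of the stress-activated pathway, had 12 of 28, 5 of 20, 10 of 17 and 5 of 21 in an intron, and Erdr1 had 7 of 15, 11 of 36, 5 of 13 and 5 of 23. The adjusted p of the stratified exact test was 0.985, 0.609 and 1 for these. Erdr1 lies in the pseudoautosomal region, which X and Y share, so its reads may come from either copy.

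The largest TM excess was in Mid1, a ubiquitin ligase that binds microtubules, with 5 of 12 altered reads in CON and 8 of 12 in TM of EC1, and 4 of 15 and 16 of 26 in EC2. Its adjusted p in the stratified exact test was 0.585, the lowest of the 5 members with the largest TM excess. A second Erdr1 site had 5 of 48, 13 of 70, 1 of 25 and 6 of 42. Itga5, the alpha subunit of a fibronectin receptor, had 1 of 20, 3 of 20, 3 of 24 and 5 of 26. In the kinase Mast4 the reads were 13 of 15, 15 of 16, 29 of 32 and 40 of 42, and in Ago2, the argonaute that cuts target RNA, 6 of 65, 12 of 87, 8 of 82 and 19 of 124. The adjusted p of these 4 members was 1 in the stratified exact test.

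By the criteria of the study (a rate at least 5.0 percentage points higher, with the limits on depth, altered reads and rate met in the higher library), 196 of 456 members were higher in CON in EC1, against a background of 43.5% of all passing sites, and 123 were higher in TM, against 28.6%. In EC2, 134 of 409 were higher in CON, against 37.2%, and 134 in TM, against 33.4%. A library that does not list a site counts here with a rate of 0, as in the deposited table. The rule for members used these rates, so the counts are a description. Both mice agreed on CON > TM at 36 members (5.61%), where 7.35% of all passing sites and 11.4% of SINE sites did, and on CON < TM at 29 (4.52%), against 3.92% and 1.93%. With at least 5 reads in all 4 libraries these counts were 22 and 13. The mice went opposite ways at 47 members (7.32%), against 6.52% of all passing sites. The counts in the 2 directions were thus nearer to each other for the members than for SINE sites. Outside repeats they were also near each other, at 4.75% for CON > TM and 5.13% for CON < TM in both mice.

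At the 162 members with at least 5 reads in every library, both CON rates lay above both TM rates at 32 (19.8%), where 26.9% of 7407 passing sites and 41.8% of SINE sites did. Both TM rates lay above both CON rates at 21 members (13%), against 11.2% of passing sites. Split by mouse instead of treatment, both EC1 rates lay above both EC2 rates at 30 members (18.5%), against 15.3%, and both EC2 rates above both EC1 rates at 24 (14.8%), against 16.7%. Each of these splits was therefore met at a similar share of the members, 13% to 19.8%. Sites outside repeats were alike in this, at 17.6%, 14.6%, 16.6% and 18.8% in the same order, so it is not particular to the members.

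The second question was how far sites and rates were shared between mice. In all, 223 members (34.7%) passed in both mice, close to the 33.0% of SINE sites and 36.2% of sites outside repeats, and 148 did so without EC2 TM. All 4 libraries passed at 55 members (8.57%), compared with 9.55% of SINE sites and 15.5% of sites outside repeats. A single library passed at 359 (55.9%). Many of these were still listed elsewhere, as 274 members (42.7%) had altered reads in all 4 libraries. Among members that passed in exactly 2 libraries, the pair was CON and TM of EC1 at 39, CON and TM of EC2 at 21, both CON at 24 and both TM at 31. Among SINE sites the corresponding counts were 340, 411, 534 and 198, and outside repeats 733, 1284, 292 and 500. For SINE sites the pair of CON libraries led, outside repeats the pairs from one mouse led, and for the members no kind of pair led in both mice.

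Rates agreed across libraries at the deeper members. At the 82 members with at least 10 reads in every library, the mean absolute difference was 8.05 points between CON and TM of EC1 and 8.24 points in EC2, against 8.51 points between the CON libraries and 7.01 between the TM libraries. Pearson's r over these sites was 0.916, 0.888, 0.901 and 0.907, a description, since sites of one repeat share reads. Outside repeats, libraries of the same mouse were closer (8.67 and 8.41 points) than those of different mice (11.5 and 10.4), and at SINE sites the TM libraries were closest to each other (6.78 points, with 9.64 and 11.3 within mice). The members' differences within a mouse and between mice were of one size. The mean rates at these 82 were 28.6% in CON and 25.1% in TM of EC1, and 27.8% and 25.7% in EC2, differences of 3.50 and 2.07 points against 0.447 and 1.30 outside repeats, in libraries that include those that chose the sites. CON was higher in both mice at 26 of the 82, TM was higher in both at 15, and 41 went opposite ways or were equal in a mouse. The same count was not made for other classes of sites, so these numbers have no background and are not read as a CON excess.

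**Figure D3:**
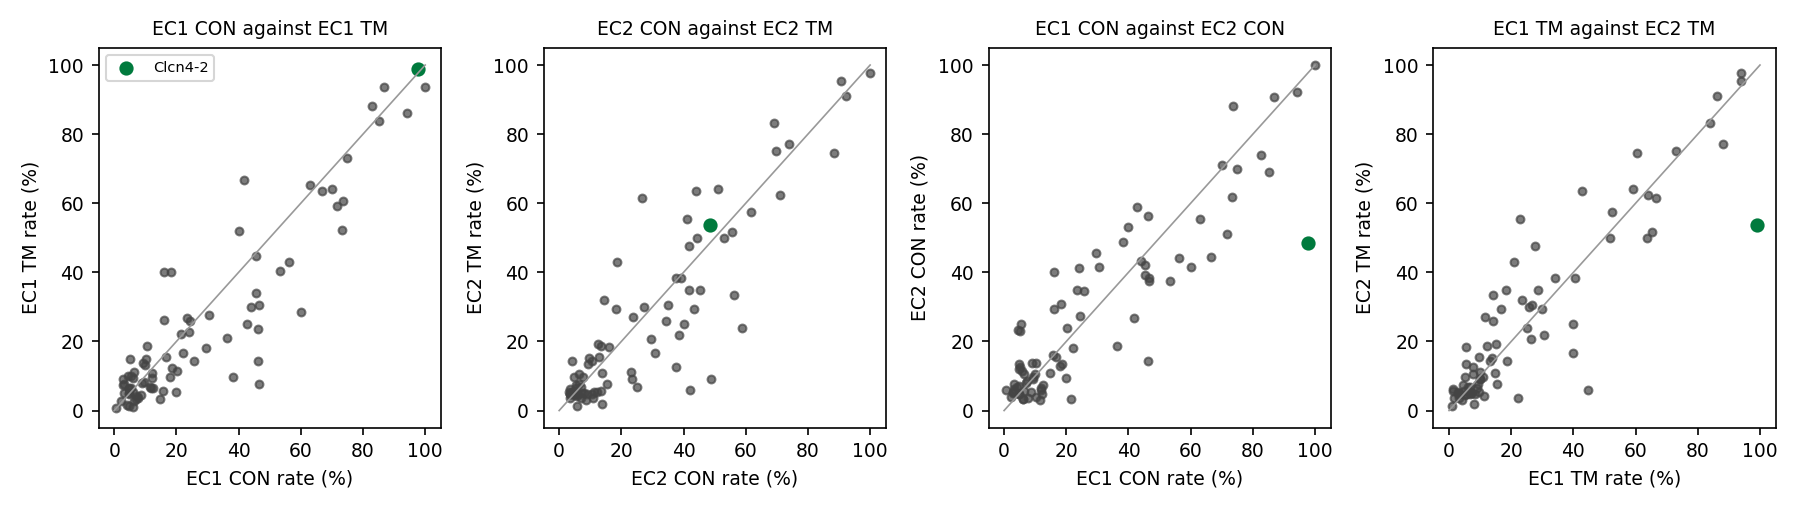
Rates of altered reads (%) at the 82 members with at least 10 reads in all 4 libraries, for CON against TM in each mouse and EC1 against EC2 in each group, with the line of equal rates. Points follow the line in all 4 panels. Clcn4-2 lies below it in both EC1 against EC2 panels.

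The deepest members that passed in all 4 libraries had rates that ran from 9.23% to 94.1%. The site in the 5′ UTR of Setd3, an actin methyltransferase, had 21 of 113 altered reads in CON (18.6%) and 18 of 146 in TM (12.3%) of EC1, and 22 of 164 (13.4%) and 38 of 204 (18.6%) in EC2. Trim8, a ubiquitin ligase, had 11 of 106, 21 of 142, 26 of 189 and 39 of 361 in an A run of its 3′ UTR, or 10.4% to 14.8%. Ctnnd1, the catenin p120 that holds cadherin at cell junctions, had 95 of 101 (94.1%), 93 of 108 (86.1%), 164 of 178 (92.1%) and 172 of 189 (91.0%) in its 5′ UTR. Pvrl3, the adhesion protein nectin-3, had 13 of 72, 6 of 62, 18 of 140 and 17 of 110 in its 5′ UTR, or 9.68% to 18.1%. None of these, nor Ago2, was called between CON and TM or between mice. In each of Setd3, Trim8 and Pvrl3 the mice went opposite ways.

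Between mice, the test stratified by treatment called 1 of 162 members (0.617%), where 1.73% of 20243 sites were called, and 8 had an unadjusted p under 0.05 (background 4.63%). Among passing sites the shares were 4.59% called and 11.8% at an unadjusted p under 0.05, against 4.94% of the members for the latter. Outside repeats 256 of 3807 were called (6.72%) and among SINE sites 51 of 2645 (1.93%). The member called was in the 3′ UTR of Clcn4-2, a chloride and proton exchanger. The site, at position 7284047 of chromosome 7, had 90 of 92 altered reads in EC1 CON (97.8%, 95% Wilson interval 92.4% to 99.4%) and 98 of 99 in EC1 TM (99.0%), against 90 of 186 in EC2 CON (48.4%, 41.3% to 55.5%) and 116 of 216 in EC2 TM (53.7%, 47.0% to 60.2%). The EC1 rates were far above the EC2 rates in both treatments, with an adjusted p of 3.54e-35, while CON and TM of the same mouse, stratified by mouse, had an adjusted p of 1. More widely, 44 members (6.85%) had a rate above 95% in another library, compared with 3.24% of SINE sites and 11.3% of sites outside repeats.

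A stricter form of difference between mice is a member listed in both libraries of one mouse and in neither of the other. There were 72 (11.2%), 37 in EC1 and 35 in EC2, against 9.91% of SINE sites, 18.8% of sites outside repeats and 14.9% of all passing sites. With at least 5 reads in both libraries of the mouse there were 55, 26 in EC1 and 29 in EC2. The reverse pattern by treatment was seen at 29 members listed in both CON and in no TM library (4.52%, against 5.33% of SINE sites and 1.48% of sites outside repeats) and at 13 listed in both TM and in no CON library (2.02%, against 2.53% and 2.94%). A library lists a site only if it has at least 1 altered read, so an unlisted site gives no depth of its own.

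A pair of genome stretches held many of the members found in one mouse. Of the 37 in EC1, 17 (45.9%) were on chromosome 10, between positions 3894905 and 20704196, in 8 genes that include Sash1 and Phactr2. Within that stretch, 17 of 30 members (56.7%) were listed in EC1 alone and 1 passed in both mice, whereas elsewhere 20 of 612 (3.27%) were listed in EC1 alone. SINE sites there showed the same, with 63 of 116 (54.3%) inside and 2.83% elsewhere, and so did sites outside repeats, with 298 of 379 (78.6%) inside and 2.76% elsewhere. Of the 35 members in EC2 alone, 9 (25.7%) were on chromosome 14, between positions 47108890 and 93873214, which is 33.3% of the 27 members there against 4.23% elsewhere. The same stretch held 60.2% of its SINE sites and 75.9% of its sites outside repeats in EC2 alone. Both stretches were drawn from the members themselves, so no test was made.

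**Figure D4:**
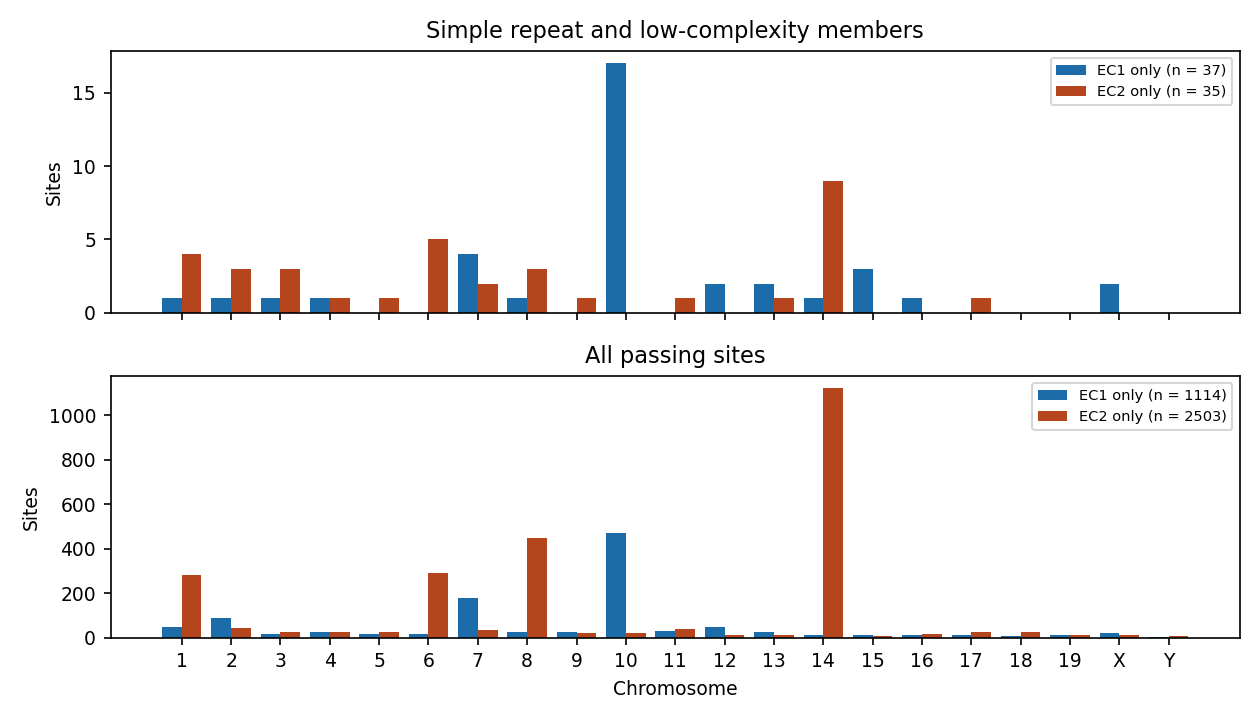
Number of sites listed in both libraries of one mouse and in neither of the other, by chromosome, for the members (top) and all passing sites (bottom). Chromosome 10 holds 17 of the 37 members of EC1 and 471 of 1114 passing sites, and chromosome 14 holds 9 of the 35 members of EC2 and 1121 of 2503 passing sites.

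Among the deepest members of one mouse were 3 exonic sites. Arhgap17, a regulator of small GTPases, had 36 of 119 altered reads in EC1 CON (30.3%) and 33 of 117 in EC1 TM (28.2%) in an exon. Acin1, a nuclear protein of RNA splicing and apoptosis, had 223 of 365 in EC2 CON (61.1%) and 359 of 610 in EC2 TM (58.9%) at one exonic site. At the other exonic Acin1 site there were 115 of 248 (46.4%) and 142 of 324 (43.8%). At sites listed within 50 bases of these Acin1 positions, EC1 CON had median depths of 274 and 304 reads and EC1 TM 354 and 264, so the region was read deeply in EC1. Around Arhgap17 no site was listed in EC2, and depth there is unknown. One intronic site in Sash1, a scaffold protein of endothelial signalling, had 27 of 54 altered reads in EC1 CON (50%) and 25 of 38 in EC1 TM (65.8%), a wider gap than at the exonic sites.

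Other deep members of one mouse had low rates. A second Sash1 site had 4 of 71 altered reads in EC1 CON and 5 of 97 in EC1 TM, where sites within 50 bases had median depths of 59.5 reads in EC2 CON and 76 in EC2 TM. A Mast4 intron site had 4 of 44 and 2 of 30 in EC1, and Phactr2, an actin regulator, had 2 of 40 and 3 of 27. In EC2, Cds2, an enzyme of phospholipid synthesis, had 4 of 88 and 5 of 96 at one 3′ UTR site and 6 of 84 and 2 of 92 at another 6 bases away. Nrp2, a coreceptor for vascular growth factors, had 4 of 73 in EC2 CON and 1 of 108 in EC2 TM, with neighbouring depths of 73 and 50 reads in EC1 CON and EC1 TM. Over the 72 members, the mean rate of the 2 libraries was 30% to 70% at 14 in EC1 and 13 in EC2, below 30% at 16 and 17, and above 70% at 7 and 5. Where the lower depth was at least 10 reads (16 members in each mouse), CON and TM differed by 11 points on average in EC1 and 4.20 in EC2.

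**Figure D5:**
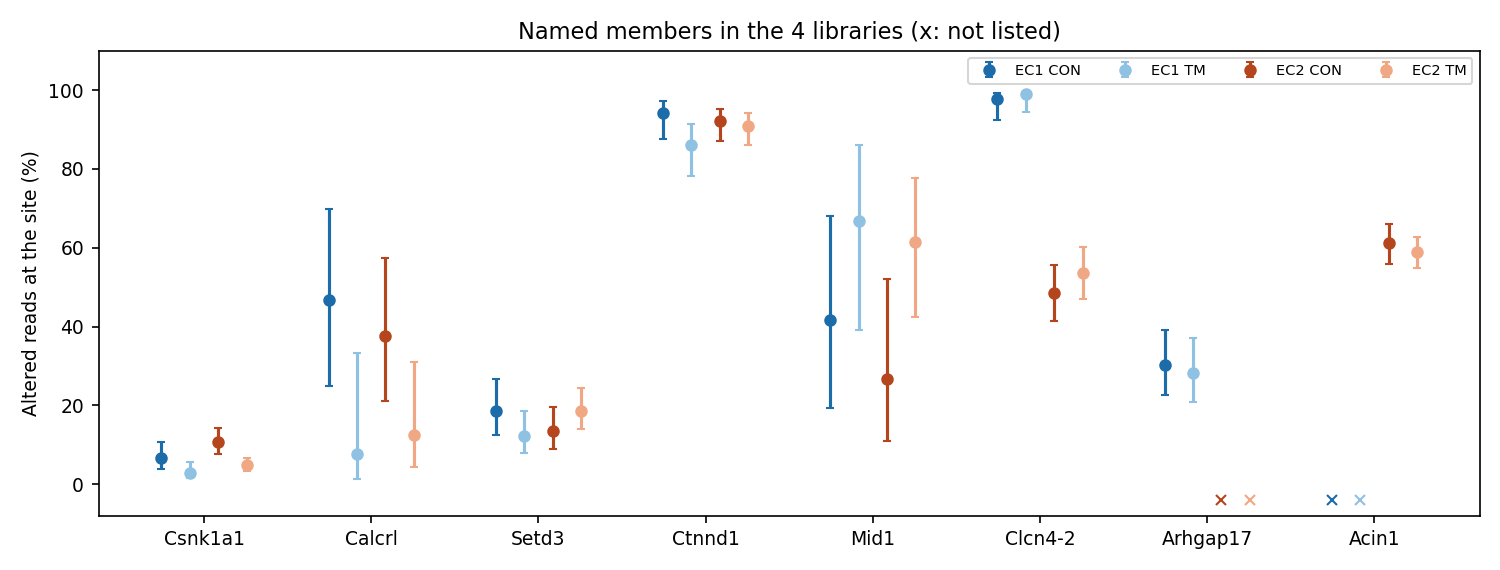
Rates of altered reads (%) of 8 named members in the 4 libraries, with 95% Wilson intervals for counting error and a cross where a library does not list the site. Csnk1a1 and Calcrl are lower in TM of both mice, Clcn4-2 is at 97.8% and 99.0% in EC1 and 48.4% and 53.7% in EC2, and Arhgap17 and Acin1 are listed in one mouse only.

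The repeats with the most members showed how neighbouring sites share reads. A repeat in the 3′ UTR of Fbxl17, an F-box protein, held 11 members with an AC unit. Of these, 10 passed in EC2 CON, against 2 in EC1 CON, 0 in EC1 TM and 1 in EC2 TM, so these members rest largely on 1 library. Over listed sites, the summed reads were altered at 16.8% in EC2 CON (10 sites) and 7.95% in EC1 CON (9 sites). In TM the values were 10% in EC1 (2 sites) and 9.62% in EC2 (5 sites). A listed site has at least 1 altered read, so summed rates, here and for the repeats below, can cover unlike sets of sites. An intronic repeat of Csnk1d, another casein kinase 1, held 7 members that all passed in both mice. Its summed reads were altered at 21.6% in CON and 46.9% in TM of EC1, and at 55% and 41.5% in EC2, with TM higher in EC1 and CON higher in EC2, at median depths of 6 to 15 reads. Tbc1d24 held 7 in a TA repeat 65 bases from a SINE site, at 33.3%, 23.2%, 41% and 47.1%. Sash1 held 6 at 7.02%, 5.01%, 3.19% and 4.73% with median depths of 77 to 90.5 reads, and Cd200, an immunoglobulin family surface protein, held 6 at 14.6%, 22%, 20% and 18.9%.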

How the data were processed

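The study isolated RNA from lung ECs of 2 i-KO mice, with and without TM, depleted ribosomal RNA and sequenced 4 libraries. Per the labels and the submitters' processing notes, the authors used Trimmomatic 0.38, STAR 2.6.1a and HTSeq 0.11.2 with mm10, and deposited raw counts per gene. They called variants per library with BCFtools mpileup and deposited, for each site, counts of reference and altered reads and the rate as a fraction of altered reads, which equalled the reads to within 5.00e-07. Repeat and gene annotations are the authors' own. Columns were given to libraries through the study's site table, whose held sites had equal reads in all 4 libraries. Some positions are printed in rounded form, and at 9 listed sites the chromosome, position and reference base repeat those of another listed site.

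Members and lists were chosen with earlier results of these data known. Rates, depth limits, Wilson intervals, exact tests on reads (Fisher's, or stratified by mouse or treatment, Benjamini-Hochberg over all listed sites at the depth minimum of 5) and counts were computed with scipy 1.17.1, pandas 2.3.3 and numpy 2.4.6 under Python 3.11.15, drawn with matplotlib 3.10.9, and the tests were checked on simulated reads. Intervals cover counting error only, since reads carry no molecular identifiers. Pairing by mouse comes from the cultures. Deviations of CON and TM of a mouse correlated with r = 0.167 over 162 members and 0.383 over 7407 passing sites.

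Named members were those called, the 5 with the largest CON excess and the 5 with the largest TM excess at 10 or more reads in all 4 libraries, the 5 deepest passing in all 4, the 5 deepest in each mouse alone, and the 5 repeats with the most members. Alternatives were other limits on depth, altered reads, rate and rate difference, rates of summed reads, other readings of unlisted sites, no replicate block, and each library or mouse left out. Intronic sequence context was not analysed here. Gene counts served only to check Adar, cell type markers and named host genes. Some named members and sequences are not reported here.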

Additional observations from a re-analysis of the deposited data

How the results depend on the processing

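Most counts depended on depth and on the limits. At a depth of at least 10 reads, 141 members passed in both mice, 22 were shared CON > TM, 14 were shared CON < TM, and 32 were listed in one mouse alone. At 20 reads there were 239 members, of which 82 passed in both mice, and with at least 5 altered reads these counts were 317 and 115. Restricting the shared sites to those with at least 5 reads in all 4 libraries left 22 with CON > TM and 13 with CON < TM. With adjustment over passing sites alone, the exact tests called 3 members in EC2 and 2 between mice. The mean CON minus TM rate at sites chosen in the other mouse became -0.313 points with unlisted sites taken as 0, 1.81 at a depth of 10, 1.22 at 20 and 2.14 for summed reads (5.12 in EC1 and -0.849 in EC2), and the mean at each mouse's own sites, 1.14 points (3.52 in EC1 and -1.25 in EC2), became -0.381 points for summed reads and 0.297 at sites with at least 5 reads in both libraries. Leaving out 1 library at a time gave 516 to 574 members, with 148 to 169 passing in both mice. Leaving out a mouse gave 0.586 to 0.853 points at sites chosen in the other mouse, -1.25 to 3.52 points at a mouse's own sites, and 0 to 2 calls between CON and TM. Without the replicate block the 2 calls over both mice stood in number and the permutation p of the 0.720 points was 0.667. In all, 33 of the alternative values kept their direction or, for counts, stayed within 1.5 times, while 14 counts moved further and 3 differences reversed. The cause of the changes above was not tested. Depth limits the precision, since the median passing member had 12 to 17 reads.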
